A study of Mus musculus with 6 samples.

Results

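The smooth muscle contractile genes are a chosen set of 10 genes, Acta2, Actg2, Tagln, Myh11, Cnn1, Tpm1, Tpm2, Myl9, Lmod1 and Des, which encode the actin, myosin, tropomyosin and associated proteins by which smooth muscle holds and shortens. They were chosen by name, as the textbook components of the contractile apparatus, and their values were no part of the rule. Earlier results of these data were known, however, when the set was chosen. On these arrays 8 of the 10 had a named probe, among 9383 genes tested in all. The 8 genes were read by 11 probes, 4 of them for Acta2, and all 11 were detected on all 6 arrays. Cnn1 and Myl9 were not analysed here, because no probe carried their names in the annotation used.

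RNA was taken from whole adult lungs of 3 control mice, Tmem100 2loxP/2loxP, and 3 mutant mice, Tmem100 2loxP/2loxP;ROSA26+/CreER. Every mouse carried the floxed Tmem100 alleles on both chromosomes and was dosed with tamoxifen, injected into the peritoneum 2 times at 0.1 mg/g. The controls therefore share the alleles and the drug and lack the tamoxifen-activated recombinase, which the ROSA26 locus drives in most cell types and not in smooth muscle alone. Lungs were collected 7 days after the injections, and their age in weeks is not stated in the labels. The comparison asks how the adult lung transcriptome differs when the recombinase is present to delete Tmem100, a transmembrane protein of endothelium. Every mutant and no control carried the recombinase. Effects of the recombinase itself and of losing Tmem100 therefore cannot be told apart in this design.

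In smooth muscle, calcium and calmodulin activate myosin light chain kinase, which phosphorylates the regulatory light chain so that smooth muscle myosin can pull on filaments of smooth muscle actin. Tropomyosins lie along those filaments, and dense bodies and intermediate filaments of desmin carry the force through the cell. In the lung these proteins mark the smooth muscle of airways and of vessels. Acta2 is also found in myofibroblasts and some pericytes, and Des, Tpm1 and Tpm2 are also expressed in cardiac or skeletal muscle. Many of the genes are controlled by serum response factor and its partner myocardin, which act through a short element called the CArG box.

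The Acta2 promoter is shown because Acta2 is read by 4 of the 11 probes and is the only gene of the set with a promoter entry in which a search for CArG boxes found a match. The RefSeq table of assembly GRCm38.p6 held an entry for 5 of the 8, which were Acta2, Tpm1, Tpm2, Lmod1 and Des. The 250 bases before the Acta2 start lie at chr19:34255374-34255623 on the minus strand. Capitals mark the matches.
Acta2: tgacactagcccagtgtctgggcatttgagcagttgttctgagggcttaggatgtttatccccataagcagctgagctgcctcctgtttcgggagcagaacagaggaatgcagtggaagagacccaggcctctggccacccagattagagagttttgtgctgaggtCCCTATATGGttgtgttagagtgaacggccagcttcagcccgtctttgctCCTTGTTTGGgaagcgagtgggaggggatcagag
The first match, CCCTATATGG, spans -84 to -75 from the start, and the second, CCTTGTTTGG, spans -34 to -25. Each departs from the CArG box at 1 base of its A and T core, and neither is an exact match. The box is its own reverse complement, so the search covered both strands. Among 27025 genes with an entry, 1.62% held an exact box in this window, 9.78% held at least 1 box with at most 1 core base off, and 0.759% held 2 or more of these. A match describes these letters and is not evidence of binding.

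Tmem100 was read by 1 probe, and where it lies relative to the deleted part is unknown here. On the normalized log2 scale it read 11.16, 15.36 and 10.69 in the controls, in mouse order, against 8.44, 9.43 and 9.51 in the mutants. The groups did not overlap, but control mouse 2 stood far above the other controls. The difference was -3.28 ± 1.15 (SE) and did not pass the threshold of an adjusted p of 0.05 (limma, adjusted p = 0.0749). Without control mouse 2 it was -1.80, with an adjusted p of 0.0284.

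Fewer probes were detected on every mutant array than on any control array. Median intensities lay between 333 and 363, and 13354 to 13749 probes were detected on the control arrays against 12781 to 13046 on the mutant arrays. Correlations between arrays were 0.979 to 0.987 among controls, 0.979 to 0.991 among mutants and 0.931 to 0.972 across the groups. The number of mice limits the precision of each difference.

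All 11 probes of the contractile genes had a lower mean in the mutants. Of these, 9 passed the test as lower (limma across all probes, Benjamini-Hochberg), none passed as higher, and the probes of Myh11 and Tpm1 did not pass. Of the 13361 tested probes as a whole, 13.5% passed as lower and 13.3% as higher. In 10 of the 11 probes every mutant mouse lay below every control mouse, which held for 23% of all tested probes. Counted by gene, with the brightest probe standing for each, 6 of the 8 genes fell, against 14.5% of all tested genes that fell and 12.7% that rose. The 8 genes had a median log2 difference of -1.07, between -1.63 for Actg2 and -0.44 for Tpm1, beside a median of 0.01 over all tested genes, of which 4.53% lay at or below -1.07. RNA of whole lung cannot tell fewer smooth muscle cells apart from less of these RNAs per cell.

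**Figure D1:**
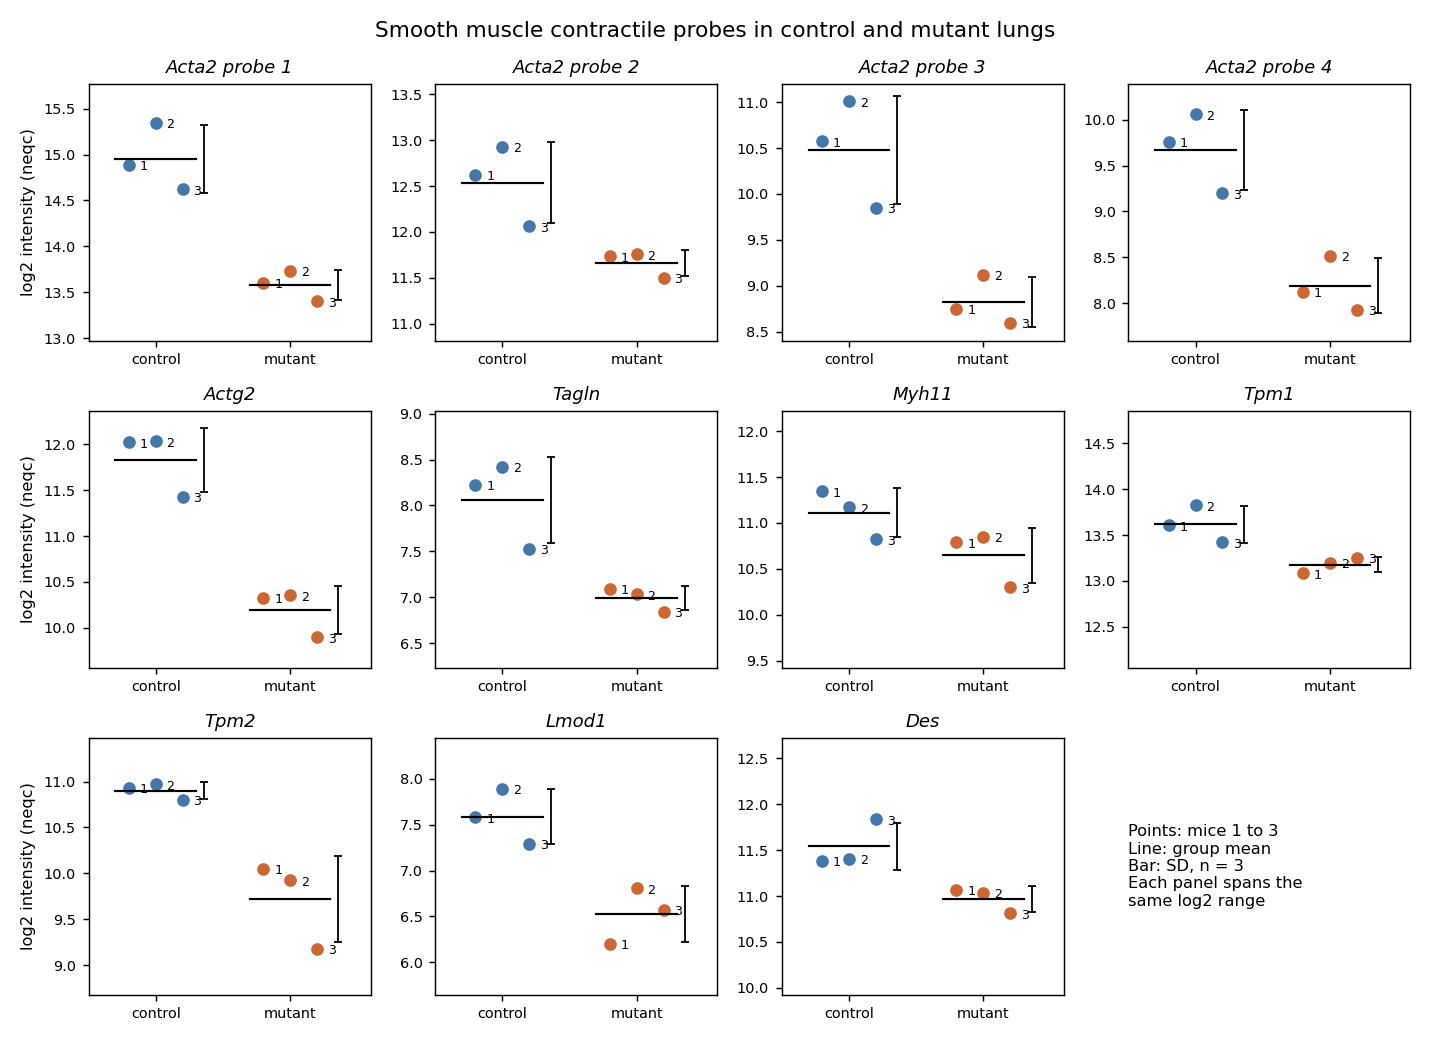
Normalized log2 intensity of each of the 11 probes in every mouse, with the group mean as a line and the SD (n = 3) as a bar, and the same log2 range in every panel. Control and mutant mice are apart in 10 panels and overlap for Myh11, and control mouse 3 is the lowest control in 10 panels and the highest control for Des.

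At their brightest probes the smooth muscle actins had the largest differences of the 8 genes. Acta2 encodes the alpha actin of vascular and airway smooth muscle. Its brightest probe gave linear intensities of 36982, 37479 and 24721 in the controls, in mouse order, against 12095, 13259 and 10577 in the mutants. Every mutant lay far below every control, and control mouse 3 was the dimmest control. After normalization the log2 means were 14.95 ± 0.37 (SD, n = 3) in controls and 13.58 ± 0.17 (SD, n = 3) in mutants. This is a difference of -1.37 ± 0.20 (SE), or 2.59-fold lower, with an adjusted p of 0.00582 (limma).

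The other Acta2 probes are separate measurements of the same gene in the same RNA and are not further replicates. The second probe read 8104, 7735 and 4510 in controls and 3500, 3514 and 2916 in mutants, in mouse order. It gave the smallest Acta2 difference, -0.87 ± 0.22, or 1.83-fold lower (limma, adjusted p = 0.0293), and its adjusted p lay between 0.0610 and 0.0918 when any mouse other than control mouse 3 was left out. The third probe read 2226, 2267 and 1168 in controls against 670, 787 and 611 in mutants, and the fourth 1402, 1325 and 846 against 528, 608 and 487. In both the groups were apart, with control mouse 3 again the nearest control to the mutants. Their differences were -1.65 ± 0.30 and -1.48 ± 0.25, or 3.15-fold and 2.80-fold lower. All 4 probes put every mutant below every control, and they differed in the size of the change. Probe sequences were not used here, so whether a probe also takes up RNA of another actin was not tested.

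Actg2 encodes the gamma actin of visceral smooth muscle. Its intensity was 5545, 4254 and 2974 in the controls and 1500, 1496 and 1110 in the mutants. The dimmest control was brighter than the brightest mutant by 1.07 on the normalized log2 scale, the widest gap between the groups among the 11 probes. The log2 means were 11.83 ± 0.35 (SD, n = 3) and 10.19 ± 0.26 (SD, n = 3). The difference of -1.63 ± 0.21 (SE), or 3.10-fold, had the lowest adjusted p of the 11 probes, 0.00444 (limma).

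Myh11 encodes smooth muscle myosin heavy chain, the motor and the most restricted of the smooth muscle markers. Its intensity was 3546, 2499 and 2040 in the controls and 1956, 1996 and 1389 in the mutants. Normalized, control mouse 3 at 10.82 and mutant mouse 2 at 10.85 crossed, so that the groups overlapped. The difference was -0.47 ± 0.20 (SE), or 1.38-fold, and did not pass the test (limma, adjusted p = 0.125). It did not pass in any of the alternatives run either, where the adjusted p lay between 0.0581 and 0.313.

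The tropomyosins, which steady the actin filament and gate its contact with myosin, differed in the size of the change. Tpm2, the beta tropomyosin, read 2790, 2218 and 2016 in the controls and 1275, 1182 and 785 in the mutants. The controls lay close together and mutant mouse 3 stood below the other mutants. Tpm2 fell by 2.27-fold, a log2 difference of -1.19 ± 0.23 (SE), with an adjusted p of 0.0124 (limma). Tpm1, the alpha tropomyosin, which is also made in many non-muscle cells, read 15475, 13900 and 10939 in the controls and 8654, 9141 and 9737 in the mutants. The groups did not overlap, yet the difference of -0.44 ± 0.14, or 1.36-fold, missed the threshold (limma, adjusted p = 0.0522). It passed in 6 of the 15 alternatives, without control mouse 3 among them (adjusted p = 0.0388), and its adjusted p lay between 0.0177 and 0.144 over all of them.

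Tagln encodes transgelin, or SM22 alpha, an actin-binding protein of smooth muscle. Its probe was dim, near the median intensity of the arrays in the mutants, at 678, 630 and 454 in the controls and 397, 392 and 378 in the mutants. The mutants lay together below all the controls, and control mouse 3 was nearest to them. The normalized difference was -1.07 ± 0.23 (SE), or 2.10-fold lower (limma, adjusted p = 0.0177). Without background correction the fold was 1.36, and the call was lost without control mouse 1 (adjusted p = 0.0649) and without control mouse 2 (0.0503).

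Lmod1 encodes leiomodin, which nucleates actin filaments in smooth muscle. Its probe lay near the limit of detection in the mutants (detection p of 0.0363, 0.00501 and 0.0138), with intensities of 535, 523 and 427 in the controls and 339, 375 and 362 in the mutants, and all 3 mutants lay below the controls. The difference was -1.06 ± 0.21 (SE), or 2.09-fold lower (limma, adjusted p = 0.0132). Without background correction the fold was 1.27. For dim probes such as those of Tagln and Lmod1 the fold thus depends on how much of the signal is taken as background.

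Des encodes desmin, the intermediate filament protein of all muscle types. It read 3631, 2852 and 3902 in the controls and 2328, 2230 and 1887 in the mutants. Control mouse 3, the dimmest control for the other 10 probes, was the brightest for Des, and no mutant reached any control. The difference was -0.57 ± 0.16 (SE), or 1.48-fold lower (limma, adjusted p = 0.0392). The call was lost when any mouse was left out, with an adjusted p between 0.0629 and 0.0909, with no filter (0.0605) and with the replicate block (0.0920).

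**Figure D2:**
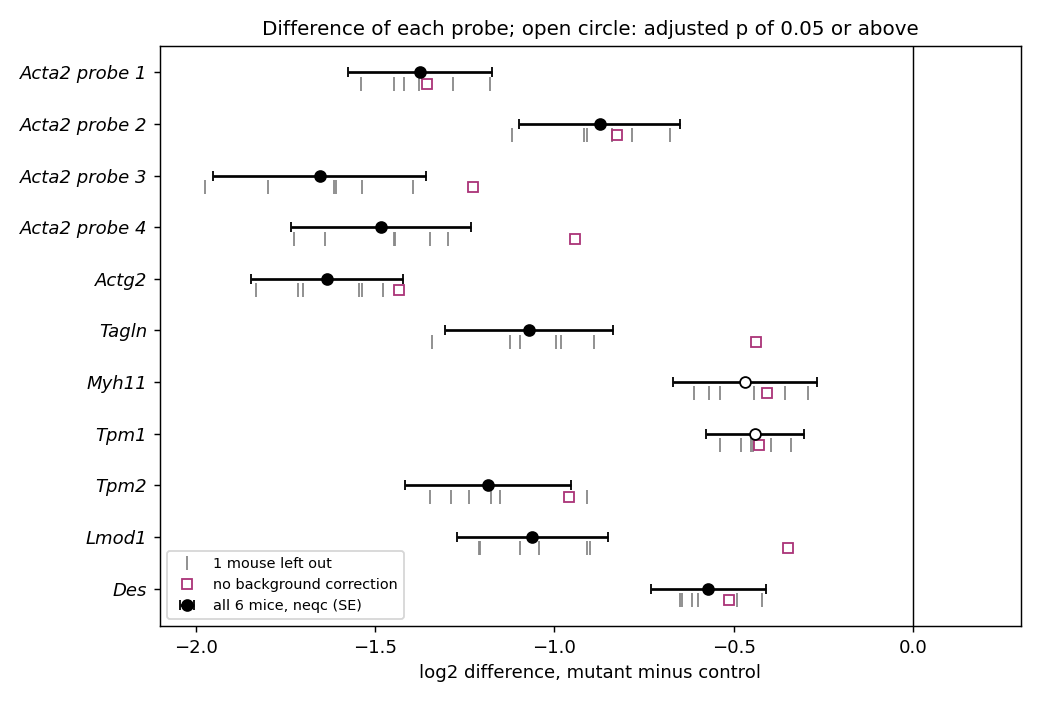
Log2 difference of mutants minus controls for each probe (circles, with SE), open where the adjusted p was 0.05 or above, with the values when 1 mouse is left out (ticks) and without background correction (squares). Every value lies below 0, and the squares of Tagln and Lmod1 lie nearest to 0 relative to their circles.

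An exact two-sided permutation test of 3 mice against 3 cannot give a p below 0.10, so single genes can pass only through the fit across all probes. Set against the brightest Acta2 probe within each array, the log2 change of Actg2 differed from that of Acta2 by -0.26, a larger fall, and that of Tpm2 by 0.19, a smaller one. The change was less than that of Acta2 by 0.91 for Myh11, 0.93 for Tpm1 and 0.80 for Des. For these 3 genes the ratio to Acta2 was higher in every mutant than in every control (exact permutation p = 0.1 each, the smallest possible, and 0.233 after adjustment over the 7 genes compared). For Tagln and Lmod1 the change was less by 0.30 and 0.31, and the ratios of the groups overlapped for the other 4 genes. Only the brightest Acta2 probe was used as the reference. The differences of the Acta2 probes lay between -1.65 and -0.87, so these values depend on that choice.

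Apart from Des, most of the genes also deviated alike from mouse to mouse within a group. The deviations from the group means had a median correlation of 0.71, between -0.15 and 0.95, over the 21 pairs of genes other than Des. The 7 pairs with Des had a median of -0.43, between -0.81 and 0.31. These values rest on 6 arrays that share their normalization and are given as a description.

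Of the genes outside the set, the 5 whose log2 level over the 6 arrays followed the mean of the standardized contractile genes most closely were Tspan6, Lefty1, Nrep, Dhx29 and Actb. Their correlations were 0.998 to 0.999, and 70 of the 9375 genes compared exceeded 0.99, since all 6 arrays fall into the same 2 groups. The 5 genes were picked for their likeness to a mean that differs between the groups. A group difference was thus built into the choice, and no p-value is given here. Lefty1, a secreted inhibitor of Nodal signalling, was lower in the mutants by 1.55 ± 0.22 (SE) on the log2 scale. Nrep, a neuronal regeneration related protein, was lower by 1.71 ± 0.24. Tspan6, a tetraspanin, and Dhx29, a helicase of translation initiation, were lower by 0.61 and 0.68.

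Among the genes that control contraction the calls went in both directions. Of 22 listed, 11 were tested, of which 3 fell, 1 rose and 7 did not pass, where 14.5% of all tested genes fell and 12.7% rose. Their median log2 difference was -0.12. Ppp1r14a, the inhibitor of myosin phosphatase called CPI-17, fell by 1.85-fold, with log2 levels of 10.62, 10.38 and 10.50 in the controls and 9.69, 9.94 and 9.20 in the mutants (limma, adjusted p = 0.0191). Both of its probes passed. Mylk, the myosin light chain kinase, fell by 1.57-fold (limma, adjusted p = 0.0463), although only 1 of its 2 probes passed. Gucy1a1, a subunit of the nitric oxide receptor guanylate cyclase, fell by 1.36-fold (adjusted p = 0.0408), with 1 of 3 probes passing. Rock1, a kinase that restrains myosin phosphatase, rose by 1.35-fold (adjusted p = 0.0432). Leaving out control mouse 1 left none of these 4 calls, with adjusted p-values of 0.0684, 0.130, 0.123 and 0.114 in the order named. The calls of Gucy1a1 and Rock1 were also lost when any other mouse was left out, with median scaling, with no filter and with the replicate block. That of Mylk was lost when any mouse other than mutant mouse 3 was left out (adjusted p of 0.0563 to 0.130), with median scaling (0.0661) and with no filter (0.0716).

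The genes of dense bodies and adhesions, where contractile filaments are anchored, were lower or did not pass. Of 22 listed, 16 were tested, of which 5 fell, none rose and 11 did not pass, beside the same 14.5% and 12.7% of all tested genes. The median was -0.37, and -0.16 with no background correction and with the deposited values. The count that fell was 9 with array weights and 4 with median scaling. At an unadjusted p of 0.05, 9 were lower and none was higher. Palld, which encodes the actin-bundling protein palladin, read 10.63, 10.51 and 10.04 on the log2 scale in the controls and 8.78, 8.80 and 8.11 in the mutants. It fell by 3.56-fold (limma, adjusted p = 0.00452), and no mutant came near a control. Pdlim3, a PDZ and LIM protein, fell by 1.76-fold at its brightest probe, with both of its probes passing, and Smtn, the smooth muscle protein smoothelin, fell by 1.75-fold at its brightest probe, with all 3 passing. Vcl, which encodes vinculin of adhesion plaques, fell by 1.63-fold (adjusted p = 0.00763). These 4 calls held in all 15 alternatives run for each.

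Transcriptional regulators of smooth muscle genes showed no common direction. Of 20 listed, 13 were tested, 1 fell, none rose and 12 did not pass, with a median of 0.02, beside 14.5% of all tested genes that fell and 12.7% that rose. The number that rose was 3 with no background correction, with array weights or with a variance trend, 2 with normexp at an offset of 50 and with the stricter filter, and 1 with the deposited values, with the replicate block and without control mouse 3. At an unadjusted p of 0.05, 4 were lower and 4 higher. The gene that fell, Prrx1, a homeobox factor of mesenchyme, did so by 1.47-fold (limma, adjusted p = 0.0408), a call lost in 10 of its 14 alternatives, where the adjusted p reached 0.121. Srf and its partner Myocd, which did not pass, were chosen after their values were seen. They differed by 0.02 ± 0.14 (SE) and -0.09 ± 0.18 on the log2 scale (limma, adjusted p = 0.942 and 0.736). The Myocd probe was dim, with log2 levels between 6.66 and 7.12. The largest differences among the genes that did not pass were -1.04 ± 0.41 for Fhl2 and 0.94 ± 0.30 for Klf4. Mutants and controls did not overlap for either (limma, adjusted p = 0.0982 and 0.0601).

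Relatives of the contractile genes were compared because they share sequence and function with them. They were listed as non-muscle relatives, but some, Tmod1 and Myl6 among them, are also expressed in muscle. Of 15 listed, 12 were tested, of which 3 fell, 1 rose and 8 did not pass, beside 14.5% of all tested genes that fell and 12.7% that rose. The median was -0.41. Tmod1, a tropomodulin that caps actin filaments, rose by 2.06-fold, with log2 levels of 9.81, 10.39 and 10.20 in the controls and 11.19, 11.04 and 11.29 in the mutants (limma, adjusted p = 0.00774). Myl6, an essential myosin light chain, fell by 1.68-fold and Myl12a, a regulatory light chain, by 1.52-fold. Actb, the cytoplasmic beta actin, fell by 1.54-fold at its brightest probe (adjusted p = 0.0120), and 2 of its 5 probes passed as lower. Of the others, none of which passed, 1 differed by -0.33 and the rest by 0.17 and 0.24 in the opposite direction.

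**Figure D3:**
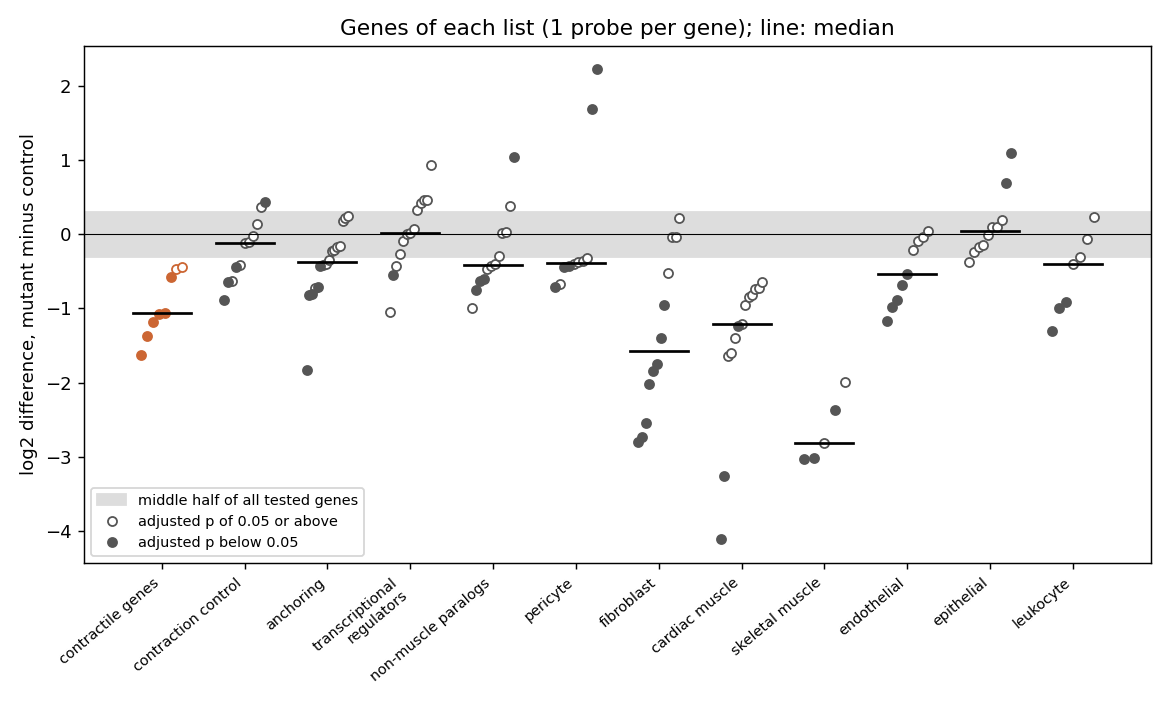
Log2 difference of mutants minus controls for each tested gene of each list, filled where the adjusted p was below 0.05, with the list's median as a line and the middle part of all tested genes, between -0.31 and 0.31, shaded. The contractile genes all lie below 0 with a median of -1.07, the fibroblast, cardiac and skeletal muscle markers also lie mostly or wholly below 0, and the epithelial markers lie around 0.

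Fibroblast markers were mostly lower in the mutants, and pericyte markers went in both directions. Of 12 fibroblast markers, all tested, 8 fell and none rose, beside 14.5% and 12.7% of all tested genes. Their median of -1.57 was -0.62 with no background correction, -0.58 with the deposited values and -0.95 with the stricter filter on detection. Their summed level on the linear scale was 99760 to 111030 in controls and 83017 to 88368 in mutants. Mfap4, Fbln1 and Col1a1, all matrix genes, fell by 6.99-fold, 6.67-fold and 4.03-fold. Col3a1, another, also passed as lower, but it was detected on only 1 of the 3 mutant arrays and no fold is given. The 4 fibroblast markers that did not pass differed less on the log2 scale. These were Gsn at -0.52, Pdgfra and Inmt at -0.04 each, and Dcn at 0.22, with every mutant above every control for Dcn. Of 10 pericyte markers tested, 3 fell and 2 rose. The count that fell was 0 without control mouse 1 or mutant mouse 1. It was 1 without control mouse 2, with the replicate block and with the deposited values. The count that rose was 1 with the stricter filter on detection, which leaves out Rgs5. The summed levels overlapped at 6415 to 7647 in controls and 6534 to 7476 in mutants. Of the 10, 8 had a lower mean in the mutants, and the median was -0.38, or -0.18 with no background correction. Higd1b and Cspg4 fell by 1.64-fold and 1.36-fold, Cox4i2 also fell, and Lamc3 rose by 3.24-fold. Rgs5, a pericyte regulator of G protein signalling, was not detected in any control and was at least 3.45-fold higher in mutants. It met the filter on detection only through the mutants. Its test is therefore not independent of that filter, and no p-value is given. The part of fibroblasts and pericytes in the result on the contractile genes was not tested.

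Markers of cardiac and skeletal muscle were lower in the mutants as well, and they differed widely among the controls. All 13 tested cardiac markers had a lower mean in the mutants, and 3 passed the test, beside 14.5% of all tested genes that fell. Their summed level was 45067 to 95040 in controls and 20288 to 37138 in mutants. Their median was -1.21, and -0.75 without control mouse 2, which had the highest mean level of these markers. Casq2 was detected on no mutant array and Mybpc3 on 1, while Actc1 and Myl3, detected on all 6 arrays, fell by 9.56-fold and 17.3-fold. Of 14 skeletal markers 5 were tested and 3 fell, beside the same 14.5% of all tested genes. Only 1 fell when control mouse 2 or any single mutant was left out, with array weights, with a variance trend and with the deposited values. The summed level was 3807 to 31660 in controls and 984 to 1856 in mutants. Ckm, the muscle creatine kinase, fell below detection in all 3 mutants, a decrease of at least 5.37-fold. It met the filter on detection only through the controls. Its test is therefore not independent of that filter, and no p-value is given. Its call as lower was lost in 10 of the alternatives.

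The mean log2 level of the 5 skeletal markers was 8.53, 9.41 and 12.23 in the controls, in mouse order, against 7.75, 7.37 and 7.12 in the mutants. Control mouse 3 was thus the highest for these markers and for Des, and the lowest control for the other contractile probes. The mean log2 level of the cardiac markers was 10.51, 11.73 and 10.62 in the controls and 9.97, 9.39 and 9.07 in the mutants. Without control mouse 2 the median of the 8 contractile genes was -0.90, and without control mouse 3 it was -1.22. Des differed by -0.42 without control mouse 3. The part of cardiac and skeletal muscle RNA in the differences was not otherwise tested.

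Of 9 endothelial markers tested, 5 fell and none rose, beside 14.5% and 12.7% of all tested genes, and 3 fell without control mouse 1. Their median was -0.53, and Emcn and Eng fell by 2.24-fold and 1.98-fold. The 4 that did not pass differed on the log2 scale by -0.21 for Robo4, -0.09 for Egfl7, -0.03 for Pecam1 and 0.04 for Esam. The summed level of the 9 endothelial markers was 115377 to 125285 in controls and 90553 to 108326 in mutants. Of 7 leukocyte markers tested, 3 fell and none rose, with a median log2 difference of -0.40 and summed levels of 63804 to 97457 in controls and 53570 to 68930 in mutants. Of 10 epithelial markers tested, 2 rose, Krt18 by 2.14-fold and Krt8 by 1.62-fold, and none fell, beside 12.7% of all tested genes that rose. Their summed levels overlapped at 162750 to 175182 in controls and 156199 to 173503 in mutants.

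**Figure D4:**
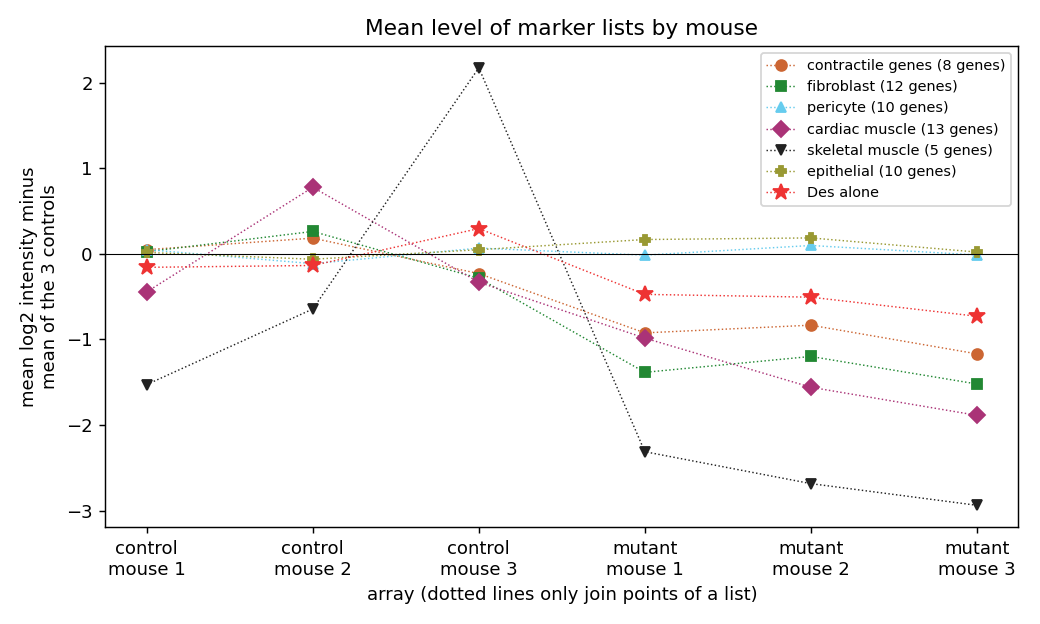
Mean log2 intensity of each marker list in every mouse, minus the mean of the 3 controls, with Des alone as stars. The contractile genes lie between 10.97 and 11.38 in the controls and between 10.03 and 10.37 in the mutants before this subtraction, fibroblast markers fall beside them, skeletal markers peak in control mouse 3 and cardiac markers in control mouse 2.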

How the data were processed

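Total RNA from whole lung, 550 ng per mouse, was amplified to biotin-labelled cRNA and read on Illumina bead arrays, per the labels' protocols. The authors deposited an unnormalized table with a linear intensity and a detection p-value for each of 25697 probes and each array, per the file headers. The submitters' processing notes name GenomeStudio 2009.2 and R 2.4.1, with no role given. Whether background was subtracted, and the chip and scan of each array, are unknown here. A deposited table of log2 values holds 13261 probes. In it the column of mutant mouse 1 equals that of mutant mouse 2 at every probe and has a rank correlation of 1 with the intensities of mutant mouse 2 and of 0.990 with those of mutant mouse 1. It was therefore used only as an alternative, with 3 controls and 2 mutants.

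Intensities were corrected, quantile normalized and put on a log2 scale by neqc (limma 3.58.1, R 4.3.3), with an offset of 16 and negative controls inferred from the detection p-values. The test took the 13361 probes detected (p below 0.05) on 3 or more of the 6 arrays, with lmFit and eBayes and Benjamini-Hochberg adjustment over all of them at 0.05. The fit was tested on simulated data. The platform annotation named 12429 tested probes, with symbols updated through RefSeq GRCm38.p6, and 932 were unnamed. Each gene was read from its brightest tested probe, by mean over the 6 arrays, and summed levels are sums of 2 to the power of the normalized values. Where no array of a group detected a probe, the fold is a bound, computed against the lowest detected signal.

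The contractile genes and the other lists were chosen with earlier results of these data known. Named were all contractile genes, Tmem100 and the 5 genes most like the contractile mean. From each other list up to 4 genes past the threshold with the largest differences were also named. Srf, Myocd, Fhl2, Klf4, Cox4i2, Casq2 and Mybpc3 were named outside this rule, after their values were seen. So were the fibroblast and endothelial markers that did not pass. The mice are separate animals. Alternatives were other background corrections and scaling, other filters, a variance trend, array weights, the replicate block, each mouse left out, and averaging a gene's probes. Same-numbered mice did not deviate together (correlations of -0.0857, -0.0140 and -0.0364), so the numbers were not taken as pairs.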

Additional observations from a re-analysis of the deposited data

How the results depend on the processing

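No probe of the contractile genes changed direction in any of the 15 alternatives run. Of their 164 alternative values 140 kept the call, 18 lost it and 6 gained it, the last all for Tpm1. All Acta2 probes but probe 2, Actg2 and Tpm2 passed in all 15, while Tagln and Lmod1 also missed with the deposited processed values (adjusted p of 0.0610 and 0.0721). The count of contractile probes that fell was 9, and lay between 6 (without control mouse 1 or control mouse 2, and with the deposited values) and 10. Their median of -1.07 was -0.48 with no background correction and -0.51 with the deposited values. Of all probes 3573 passed the threshold, and 1679 to 3077 with a mouse left out, the lowest being without control mouse 1. Without control mouse 2 it was 2104, and 2060 without mutant mouse 1. Genes of the 4 pathway lists that passed numbered 14, against 9 with no filter on detection, 26 with array weights, and 8 to 13 with a mouse left out (8 without control mouse 1, 9 without control mouse 2). With the replicate block 2642 probes and 8 contractile probes passed, although the mice share only a number. Each fit that leaves out a mouse has fewer samples; beyond that the cause was not tested. The exact permutation test of 3 against 3 cannot pass and was used only for values within arrays. Dim probes, Tagln and Lmod1 above all, limit the precision of folds.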
